A study of Homo sapiens with 8 samples.

Results

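The satellite arrays of human chromosomes 7, 10 and 12 were compared in chromatin immunoprecipitates of CENP-B from control (labelled WT) and ERCC6L2-/- U2OS cells. The regions described were the 1 kb windows of these 3 chromosomes, counted from position 1, in which at least 1 base had a coverage above 0 in either group. There were 5949 such windows of 35604 in the whole data set (16.7%), of which 2679 lay on chromosome 7, 874 on chromosome 10 and 2396 on chromosome 12. U2OS is a human osteosarcoma line grown in DMEM with serum, and both groups were untreated. In the ERCC6L2-/- cells the gene for ERCC6L2, a member of the Snf2 family of ATPases, was disrupted with CRISPR/Cas9 in lines raised from single cells, and which line was used for ChIP-seq is not given in the sources used here. Each group had 3 immunoprecipitates and 1 input, and formaldehyde-fixed chromatin was cut with micrococcal nuclease before precipitation. The question was where CENP-B sits in each background.

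Human centromeres are built on alpha satellite, a tandem repeat with a short monomer. Monomers are arranged in blocks called higher-order repeats, which are themselves repeated many times with few differences. CENP-B is a DNA-binding protein that dimerises and recognises a motif of 17 bases, the CENP-B box, in a subset of monomers. In suprachromosomal family 1, to which the arrays of chromosomes 7, 10 and 12 belong, 2 kinds of monomer alternate and the box is carried by 1 of them. Family 1 also includes the arrays of chromosomes 1, 5, 16 and 19 among others, and the arrays of 1, 5 and 19 share a near-identical repeat.

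The deposited values were reads per base inside the peaks merged over the 3 immunoprecipitates, with 1 pooled value per base for a group. Hence no value below has a replicate error, no difference between the groups was tested, and the depth of each library is unknown. A base was called covered when its value was above 0. All positions are in GRCh38. Summed over all sequences, coverage was 4419499392 read bases in control and 2036958318 in ERCC6L2-/-. Whether the values were adjusted for depth is not given in the sources used here. Scaling ERCC6L2-/- to the total of control would add 1.12 to every log2 ratio of levels. Scaling to bases covered in both groups outside centromeric bins would add 0.57. Those were 9933 bases with 98471692 read bases in control, so that this factor rests on few bases of high coverage and not on a genome-wide background. Covered lengths, and differences of log2 ratio between chromosomes, do not move with such a factor.

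The boxes of the 3 arrays and the repeat unit that starts at a box are printed first, since they are what CENP-B binds. A box was any match to NTTCGNNNNANNCGGGN, searched on both strands of GRCh38. The commonest box was the same on all 3 chromosomes, with 4922 copies on chromosome 7 (65.9% of its boxes), 3451 on chromosome 10 (69.4%) and 6015 on chromosome 12 (94.5%). Chromosomes 7 and 10 each had a second common form, whereas chromosome 12 did not. The forms are given in capitals, 5′ to 3′.
commonest box of chromosomes 7, 10 and 12: CTTCGTTGGAAACGGGA
second box of chromosome 7: CTTCGTTGCAAACGGGG
second box of chromosome 10: CTTCGTTGGAAGCGGGA
second box of chromosome 12: ATTCGTTGGAAACGGGA

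The second form had 2335 copies on chromosome 7, 1215 on chromosome 10 and 38 on chromosome 12. The commonest stretch of 1 monomer length that starts at a box was different in each array. The first 17 bases, in capitals, are the box, and all 3 examples are on the plus strand.
chromosome 7 unit, chr7:58198553-58198723: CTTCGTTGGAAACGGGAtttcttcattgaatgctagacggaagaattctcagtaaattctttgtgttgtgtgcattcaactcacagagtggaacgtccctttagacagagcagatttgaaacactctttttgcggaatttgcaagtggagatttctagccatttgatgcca
chromosome 10 unit, chr10:39973801-39973971: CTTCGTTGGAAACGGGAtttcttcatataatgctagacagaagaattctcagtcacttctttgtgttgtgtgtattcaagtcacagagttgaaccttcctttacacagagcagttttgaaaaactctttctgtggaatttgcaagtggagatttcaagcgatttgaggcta
chromosome 12 unit, chr12:34866356-34866526: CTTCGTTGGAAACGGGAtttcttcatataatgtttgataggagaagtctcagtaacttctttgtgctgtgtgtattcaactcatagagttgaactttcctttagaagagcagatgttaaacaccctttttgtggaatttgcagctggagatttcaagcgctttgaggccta

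Compared base by base without gaps, the units of chromosomes 7 and 10 were identical at 88.9% of positions, those of 10 and 12 at 69.0% and those of 7 and 12 at 64.9%. The unit of chromosome 7 had 1087 exact copies in its array, and all of them were covered in both groups. Its median coverage over those copies was 157 reads per base in control and 98.1 in ERCC6L2-/-. On chromosome 12 there were 585 exact copies, again all covered in both groups, with medians of 132 and 127. On chromosome 10 there were 268 exact copies, of which 114 had coverage in control and 28 in ERCC6L2-/-, with medians over the covered copies of 6.41 and 3.96 reads per base. Thus copies with the same letters were covered throughout on chromosomes 7 and 12 and only in part on chromosome 10.

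Beyond the dimer, the array of chromosome 7 repeated at a shorter offset than those of chromosomes 10 and 12, whose offsets were nearly equal. Each array matched itself best over short distances at an offset of 340 bases, the length of a dimer, with identities of 67.0% on chromosome 7, 64.9% on chromosome 10 and 65.7% on chromosome 12. At longer offsets the best match was at 1022 bases on chromosome 7 (77.7% identity), at 1358 bases on chromosome 10 (49.2%) and at 1359 bases on chromosome 12 (60.8%), against a median of about 26.1% to 26.3% over all offsets. Hence, as assembled in the reference, the chromosome 7 array was the most regular of the 3 at its best long offset and that of chromosome 10 the least.

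Boxes were similarly dense in the 3 arrays. Each 10 kb held 27.4 boxes in the array of chromosome 7, 26.3 in that of chromosome 10 and 26.1 in that of chromosome 12, and 340 bases was the commonest distance between neighbours in each (57.8%, 58.8% and 58.3% of distances). The 7282 boxes of the chromosome 7 array all lay on the plus strand, as did 4140 of 4141 on chromosome 10 and 6144 of 6155 on chromosome 12. A box began in 99.9%, 99.2% and 99.6% of the covered windows of chromosomes 7, 10 and 12, against 1.85% of all 1 kb windows of the assembled chromosomes. A match to these letters is a description of the sequence and not evidence of binding.

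On chromosome 7, coverage formed 1 unbroken array in both groups. With gaps of up to 1 kb joined, the array ran over chr7:58169813-60828174 in control, a length of 2658362 bases, and started 3 bases later in ERCC6L2-/- and ended at the same base. Bases with coverage made up 99.7% of it in control and 99.1% in ERCC6L2-/-. The array began 160 bases after an assembly gap of 50000 bases and ended 61 bases before another, so that its ends are those of the reference model. No gene in GENCODE release 44 overlaps it, and the nearest annotated gene before it is a pseudogene 332767 bases away.

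On chromosome 12, the main array was as complete apart from its start. It ran over chr12:34829239-37185192 in control (2355954 bases) and over chr12:34835532-37185193 in ERCC6L2-/- (2349662 bases). Covered bases made up 99.8% and 99.4% of the control stretch. The ERCC6L2-/- stretch began 237 bases after an assembly gap of 100 bases that lies inside the control stretch. No base of chromosome 12 before that gap was covered in ERCC6L2-/-, so the start of the control stretch is a separate reference piece joined to the array. It ended 61 bases before an assembly gap of 50000 bases, and no gene of GENCODE release 44 overlaps it.

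On chromosome 10, coverage was broken into pieces. With gaps of up to 1 kb joined, there were 43 regions in control and 30 in ERCC6L2-/-, against 2 and 1 on chromosome 7 and 6 and 3 on chromosome 12. A map in many pieces in ERCC6L2-/- was not particular to chromosome 10. Regions in control and ERCC6L2-/- numbered 7 and 20 on chromosome 1, 7 and 23 on chromosome 5 and 1 and 19 on chromosome 19. On chromosome 16 they numbered 4 and 3. Chromosome 10 stood out in that its control map was already broken. The numbers depend on the joining: without it there were 994 and 284 on chromosome 10, 336 and 932 on chromosome 7 and 211 and 348 on chromosome 12, so that the direction between the groups turned on chromosomes 7 and 12. The control pieces, apart from 1 farther along the chromosome, spanned chr10:39945060-41518631, a stretch of 1573572 bases, of which 48.5% was covered in control and 15.8% in ERCC6L2-/-. Pieces had a median length of 17628 bases in control and 8436.5 in ERCC6L2-/-, and the longest measured 69190 and 20919 bases. The reference is interrupted within this span by assembly gaps of 100 bases, for example 6734 bases before the piece that starts at chr10:40500179. Their part in the broken map was not tested. The span itself overlaps no gene of GENCODE release 44, and KSR1P1, a pseudogene, lies 630679 bases beyond it.

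**Figure D1:**
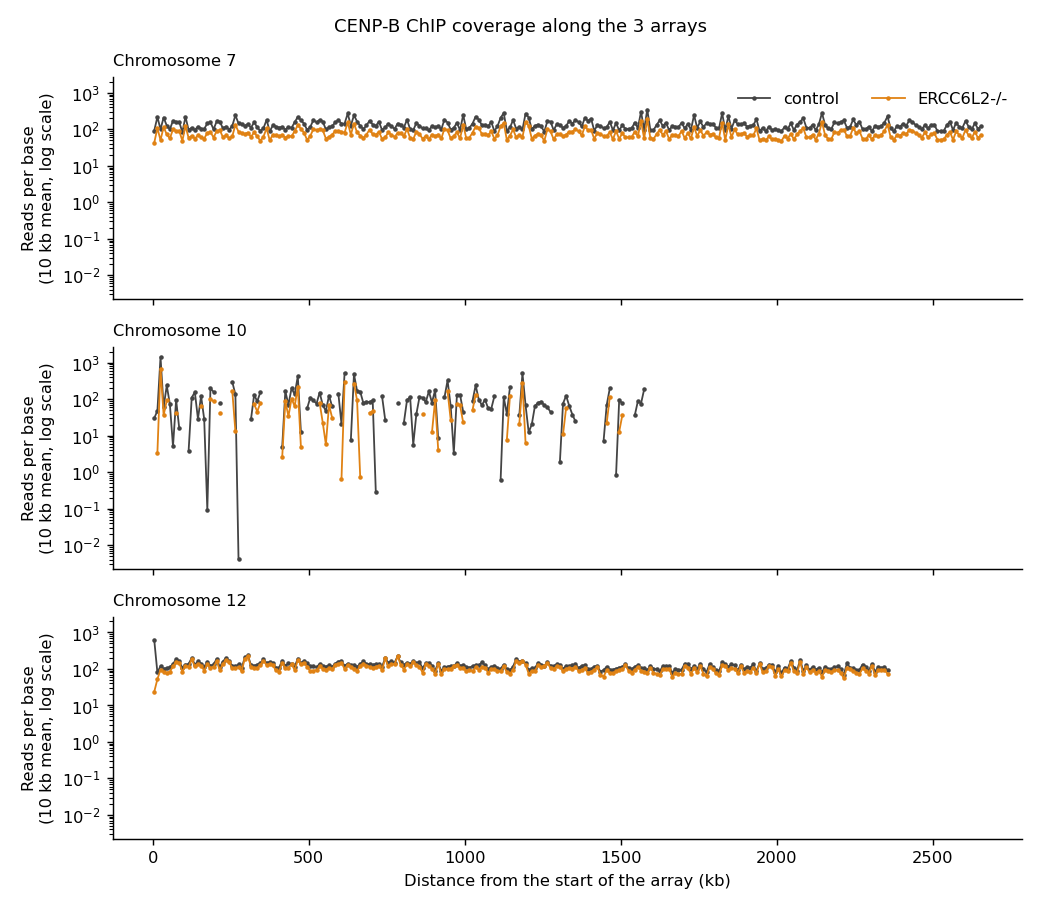
Mean reads per base in consecutive 10 kb bins (log scale) against distance from the start of the array in kb, for control (grey) and ERCC6L2-/- (orange), as deposited. Bins at 0 cannot be drawn on the log scale: there are none on chromosomes 7 and 12, and 43 of 158 in control and 103 of 158 in ERCC6L2-/- on chromosome 10.

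Boxes were as frequent in the reference where chromosome 10 had no coverage as where it had some. Windows of the chromosome 10 span with no coverage in either group held 2.65 boxes each on average, against 2.66 in windows covered in both groups and 2.60 in windows covered in control only. Their sequence was also alike in its repetition. Of stretches of 50 bases, 57.6% in windows covered in both groups, 59.8% in windows covered in control only and 61.6% in uncovered windows were repeated on chromosome 10 and found on no other sequence. About as many stretches in each set were shared only with unplaced sequences of the assembly (24.8%, 23.6% and 23.4%). How reads with several equal matches were placed is not given in the sources used here, and the part of that step in the broken map was not tested.

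For the windows themselves, chromosomes 7 and 12 lost almost no ground in ERCC6L2-/- cells while chromosome 10 lost most of it. On chromosome 7, 2660 windows were covered in both groups, 19 in control only and none in ERCC6L2-/- only. On chromosome 12 the numbers were 2363, 33 and 0. On chromosome 10 they were 299, 575 and 0. Over all sequences, 40.3% of windows were covered in control only, so that chromosomes 7 and 12 lay far below this share and chromosome 10 above it. Counted in bases, the share of the control map left uncovered in ERCC6L2-/- was 1.40% for chromosome 7, 1.51% for chromosome 12 and 67.8% for chromosome 10.

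Chromosomes 7 and 12 kept nearly the same extent but differed in level, while chromosome 10 was lowest in both. A window was counted as lowered when its ERCC6L2-/- value was under 0.5 of control after adding 1 to both, and as raised when it was over 2 times control. Lowered windows numbered 297 on chromosome 7 (11.1%), 677 on chromosome 10 (77.5%) and 49 on chromosome 12 (2.05%), against 44.6% of all windows of the data set. This count takes in windows covered in control only. They made up most of the lowered windows on chromosomes 10 and 12 and over all sequences, so that it largely measures extent there. No window of the 3 chromosomes was raised, against 0.424% over all sequences. Among windows covered in both groups, 278 on chromosome 7 (10.5%), 113 on chromosome 10 (37.8%) and 16 on chromosome 12 (0.677%) were lowered, against 7.28% over all sequences. By either count chromosome 10 was above the background and chromosome 12 below it, while chromosome 7 was below the first and a little above the second. These counts follow the threshold: after scaling to total coverage, lowered windows were 0.709%, 64.6% and 1.46% of windows. On chromosome 7 this equals the share of windows covered in control only. The share over all sequences under this scaling is not given here, so these values have no background to be set against.

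Mean coverage over bases covered in both groups was 138 reads per base in control and 77.7 in ERCC6L2-/- on chromosome 7, a log2 ratio of -0.83. On chromosome 10 the means were 332 and 177, a log2 ratio of -0.90. On chromosome 12 they were 144 and 114, a log2 ratio of -0.34. All 3 ratios were below 0 as deposited, and all 3 were above 0 after scaling to total coverage (0.29, 0.21 and 0.78). Independent of any scaling, the ratio of chromosome 7 lay 0.49 below that of chromosome 12 on the log2 scale, that of chromosome 10 lay 0.57 below it, and those of chromosomes 7 and 10 were 0.08 apart.

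Window ratios gave the same order. The median log2 ratio of windows covered in both groups was -0.79 on chromosome 7 (SD over 2660 windows 0.15), -0.94 on chromosome 10 (SD over 299 windows 0.61) and -0.29 on chromosome 12 (SD over 2363 windows 0.23). These SDs are over neighbouring windows of 1 pooled file per group and not over replicates. The middle 90% of windows lay between -1.10 and -0.62 on chromosome 7 and between -0.64 and 0.04 on chromosome 12, so that the windows of these 2 unbroken arrays overlapped little. Window levels were closely alike in the 2 groups, with Pearson correlations of log2 values across windows of 0.98 on chromosome 7, 0.97 on chromosome 10 and 0.96 on chromosome 12. Neighbouring windows share reads and repeat sequence, and these correlations are descriptions only.

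**Figure D2:**
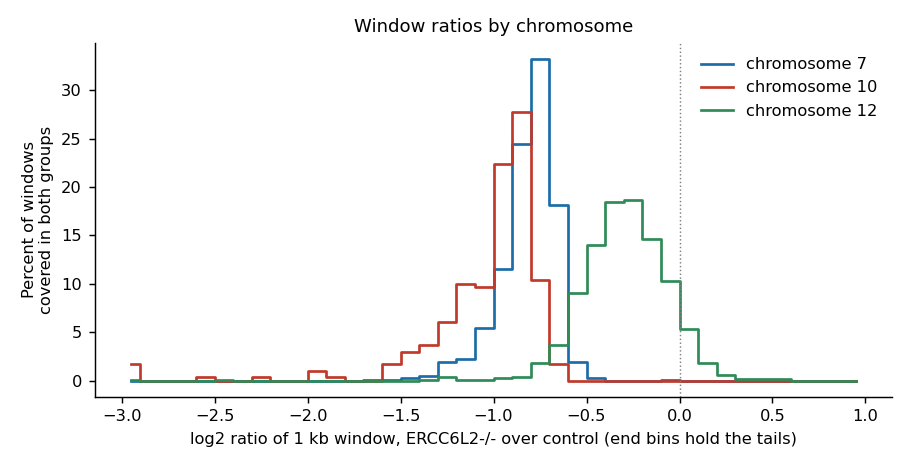
Percent of windows covered in both groups against their log2 ratio of ERCC6L2-/- over control, in steps of 0.1, for 2660 windows of chromosome 7, 299 of chromosome 10 and 2363 of chromosome 12. Medians are -0.79, -0.94 and -0.29 on the deposited scale, and scaling to total coverage would move every window up by about 1.12, which puts all 3 medians above 0.

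Among windows covered in both groups, the ratio varied little along each array. When these windows were cut into 6 consecutive parts of near-equal number, the median log2 ratio lay between -0.84 and -0.77 on chromosome 7, between -0.96 and -0.91 on chromosome 10, and between -0.31 and -0.27 on chromosome 12. Hence the medians of the parts did not overlap between the 3 chromosomes. Windows covered in control only are left out of these medians, and on chromosome 10 they were 575 of 874. In 10 kb bins, chromosome 7 ranged from 84.4 to 348 reads per base in control (median 124) and from 43.5 to 188 in ERCC6L2-/- (median 70.5). Chromosome 12 ranged from 70.2 to 606 (median 121) and from 23.9 to 225 (median 100), and both its highest control value and its lowest ERCC6L2-/- value came from the first bin. That bin takes in the start of the control stretch, before the assembly gap, where ERCC6L2-/- had no coverage. In none of the bins of the 3 arrays was ERCC6L2-/- above control as deposited.

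Individual windows of chromosome 12 did exceed control. There were 194 of them (8.21% of windows covered in both groups), all in the main array, with a median log2 ratio of 0.07 and a highest of 0.56. Their control level was above that of the other windows, with a median of 178 reads per base against 109. Such windows were not particular to chromosome 12. Their share was 5.83% on chromosome 1, 6.08% on chromosome 5, 5.92% on chromosome 19 and 0.133% on chromosome 16. The share over all sequences is not given here. On chromosomes 7 and 10 no window was higher in ERCC6L2-/- cells on the deposited scale, whereas after scaling to total coverage 94.9% of windows on chromosome 7, 69.6% on chromosome 10 and 99.4% on chromosome 12 were.

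The loss of windows on chromosome 10 was next set against their level in control. Windows covered in control had a median of 56.1 reads per base on chromosome 10, against 111 on chromosome 7 and 112 on chromosome 12, and the lowest 5% lay under 3.34, 51.4 and 51.9. Windows of chromosome 10 that were covered in both groups had a control median of 97.2, and those covered in control only had one of 43.8. Thus the lost windows were the weaker ones on average, but 157 of the 575 (27.3%) lay above the median of the windows that were kept.

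At matched control levels the chromosomes still differed. Of windows with 50 to 100 reads per base in control, 99.8% were still covered in ERCC6L2-/- on chromosome 7 and 99.6% on chromosome 12, against 31.6% of 177 windows on chromosome 10. Of those with 100 to 200 reads per base, 100% and 99.5% were still covered on chromosomes 7 and 12, against 41.7% of 151 on chromosome 10. The share on chromosome 10 was lowest, 21.8%, in windows of up to 25 reads per base and highest, 77.5%, in the 40 windows over 500. Shares by level are not given for all sequences or other arrays. Loss of windows was not particular to chromosome 10 (65.8% covered in control only): the share was 61.7% on chromosome 16 and 41.2%, 32.9% and 34.9% on 1, 5 and 19. On chromosome 16, kept windows had a control median of 52.6 reads per base and lost windows one of 50.3.

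**Figure D3:**
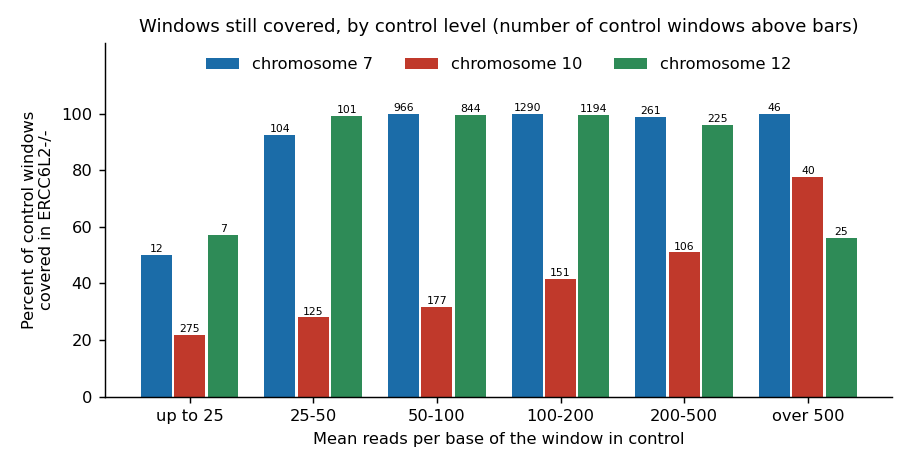
Percent of control windows with any coverage in ERCC6L2-/-, by mean reads per base of the window in control, with the number of control windows above each bar. Between 50 and 200 reads per base, chromosomes 7 and 12 are above 99%, and chromosome 10 is at 31.6% and 41.7%.

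By region, 29 of the 43 control pieces on chromosome 10 had some coverage in ERCC6L2-/- cells and 14 had none. Those with coverage had a median length of 17628 bases and a median level of 148 reads per base in control, and those without had 15113 bases and 106 reads per base. In the pieces that were kept, between 17.8% and 92.8% of covered bases remained, with a median of 51.9%. All 30 regions of ERCC6L2-/- cells lay inside a control region, and 0.705% of their covered bases had no coverage in control. Hence the map of chromosome 10 in ERCC6L2-/- cells was a reduced form of that in control, with no new sites.

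Coverage on chromosome 10 was also concentrated in few windows. The 10 highest windows held 25.3% of its summed coverage in control and 40.0% in ERCC6L2-/-, against 3.57% and 3.61% on chromosome 7 and 13.4% and 7.32% on chromosome 12. These are not equal parts of each map, since covered windows numbered 874 and 299 on chromosome 10, 2679 and 2660 on 7 and 2396 and 2363 on 12. The highest window was 209 and 114 times the median window on chromosome 10, against 14.1 and 14.7 times on 7 and 84.9 and 46.1 times on 12. The highest window of chromosome 10, chr10:39967001-39968000, had 11759 reads per base in control and 5684 in ERCC6L2-/-. The highest of chromosome 7, chr7:58818001-58819000, had 1560 and 943, and that of chromosome 12, chr12:37237001-37238000, had 9537 and 4168. The highest windows were the same in both groups on each of the 3 chromosomes.

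The highest window of chromosome 12 lies outside its main array, in a set of small sites beyond the assembly gap. The site at chr12:37235308-37240837 had a mean of 6317 reads per base in control, and over the same bases the mean in ERCC6L2-/- was 2704. The log2 ratio was -1.22, against -0.26 in the main array. A second site, chr12:37245724-37255289, had 1337 reads per base in control, and 46.0% of its covered bases were covered in ERCC6L2-/-. Another, chr12:37257155-37268746, had 405 reads per base and no coverage in ERCC6L2-/-. The flanking sites before the array, chr12:34714029-34719398 and chr12:34819483-34822272, had 312 and 234 reads per base and were likewise covered in control only. The main array held 84.5% of the coverage of chromosome 12 in control and 92.7% in ERCC6L2-/-.

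On each of the other 2 chromosomes, the 1 flanking site was covered in control only. On chromosome 7, a stretch of 17784 bases at chr7:62506783-62524566 with 30 boxes had 86.5 reads per base in control and none in ERCC6L2-/-. On chromosome 10, the piece at chr10:41837591-41842251 had 668 reads per base in control and none in ERCC6L2-/-. Hence of the 7 control regions outside the main stretches of the 3 chromosomes, 5 had no coverage in ERCC6L2-/- cells. The 2 that had some, both on chromosome 12, were the highest of the 7 in control. The start of the chromosome 12 stretch, covered in control only but joined to the array, is not among the 7. For scale, 40.3% of all windows were covered in control only. On chromosome 10, 14 of 43 control regions had no coverage in ERCC6L2-/-, the flanking piece included.

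Boxes followed the windows that hold them. On chromosome 7, 100% of the 7282 boxes of the array were covered in control and 99.9% in ERCC6L2-/-, with medians of 117 and 71 reads per base. On chromosome 12, 6153 and 6135 of 6155 boxes were covered, with medians of 113.5 and 90.5. On chromosome 10, 46.8% of 4141 boxes were covered in control and 16.1% in ERCC6L2-/-, and the 661 covered in both groups had medians of 116 and 54.

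The forms of the box differed more in median level on chromosome 10 than on chromosome 7, but not in mean level. On chromosome 7, the commonest and the second box had similar medians, 115 and 120 reads per base in control and 69 and 74 in ERCC6L2-/-, over copies covered in both groups. On chromosome 10, the second box had a median of 227 reads per base in control and 123 in ERCC6L2-/- over 164 copies, while the commonest had 86 and 39 over 483 copies. Their log2 ratios of mean coverage were nearly equal, -0.92 and -0.89 as deposited. Within the array, the second form was covered in 37.7% of 1198 copies in control and in 168 copies in ERCC6L2-/-, and the commonest was covered in 50.1% of 2857 copies in control and in 485 copies in ERCC6L2-/-.

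Rarer forms stood apart. CTTCGTTGCAAACGGGA, the next box in number on chromosomes 7 and 10, was covered in 66 of 70 copies on chromosome 7 in control, and in 2 of 152 on chromosome 10, of which only 5 lie in the array. On chromosome 12, CTTCGCTGGAAACGGGA occurred 37 times, always inside the array, and all copies were covered in control. Its mean there was 13.5 reads per base, against 150 over all covered boxes of the array. These forms were ranked by their number of copies and not by coverage.

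Around a box, coverage rose and fell with the dimer. Profiles are means over boxes covered in both groups, with values capped at the 99th percentile of each group. The highest and lowest means were read within 170 bases on either side, and the low point of each side within 250 bases. The mean was highest 74 bases after the box on chromosome 7, at 168 reads per base in control and 98.5 in ERCC6L2-/-. It was lowest 151 bases before the box, at 66.9 and 38.0. On chromosome 12 the highest mean was 155 in control, 21 bases before the box, and 130 in ERCC6L2-/-, 20 bases before it, and the lowest was 79.3 and 71.0, again at 151 bases before the box. The ratio of highest to lowest was 2.51 in control and 2.59 in ERCC6L2-/- on chromosome 7, and 1.95 and 1.83 on chromosome 12. A second low point lay 191 bases after the box on chromosome 7, at 67.5 and 38.3, and 189 bases after it on chromosome 12, at 78.4 and 70.0. It lay about a dimer length from the first, so that it is the same point of the repeat.

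On chromosome 10, over 661 boxes, the highest mean was 269 reads per base in control and 178 in ERCC6L2-/-, both close to the box. The low point before the box, at 149 bases, was 141 in control and 103 in ERCC6L2-/-, and that after it, at 191 bases, was lower, at 129 and 90.9. With few boxes and a heavy tail of high values, the caps differed between the groups (1981 and 2931 reads per base), so that levels in this profile cannot be set against each other as a ratio.

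**Figure D4:**
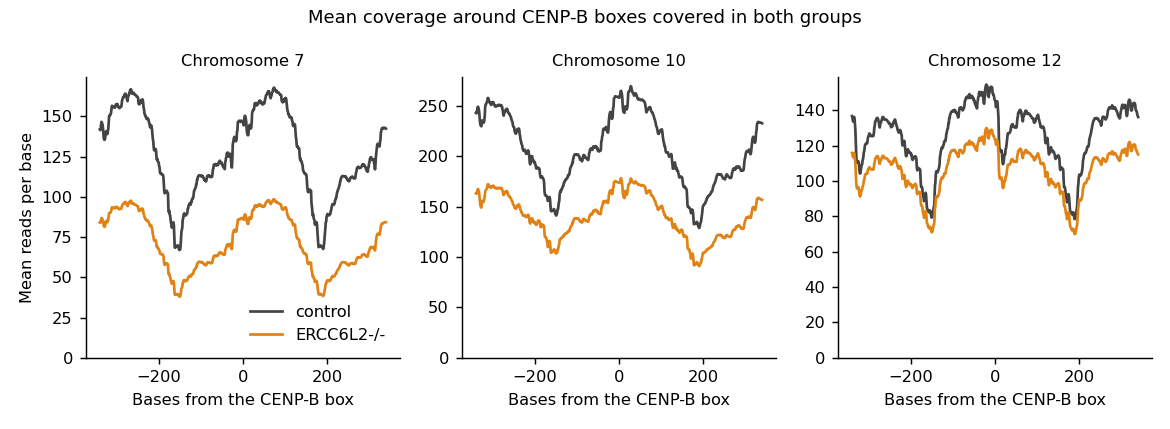
Mean reads per base against distance in bases from the CENP-B box, over 7271 boxes on chromosome 7, 661 on chromosome 10 and 6133 on chromosome 12, for control (grey) and ERCC6L2-/- (orange), capped at the 99th percentile of each group. Each chromosome has its own vertical axis from 0, and every profile has a low point 149 or 151 bases before the box and another 189 or 191 bases after it.

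Among windows covered in both groups, the number of boxes in a window made little difference to the change. On chromosome 7, the median log2 ratio was -0.82 in windows with 1 box, -0.80 with 2 and -0.79 with 3. On chromosome 12, it was -0.35, -0.31 and -0.27. For chromosome 10 it was -0.90, -0.96 and -0.94. Those medians leave out lost windows: 8 of 43 control windows with 1 box were still covered in ERCC6L2-/-, 82 of 233 with 2 and 208 of 588 with 3. The share kept on chromosome 10 was thus lower with 1 box, in few windows. On chromosome 12 the control median rose with the number of boxes, from 84.7 reads per base with 1 box to 119 with 3, and on chromosome 7 it went from 95.1 to 111 and 112. On chromosome 10 it was 65.1, 54.2 and 54.7.

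The arrays shared few stretches of sequence with other assembled chromosomes. Of stretches of 50 bases in covered windows of the arrays, 15.9% on chromosome 7, 11.4% on chromosome 10 and 11.1% on chromosome 12 were also found on another assembled chromosome. On chromosomes 1, 5 and 19 the shares were 87.0%, 99.5% and 100%, and on chromosome 16 42.3%. At 100 bases, the shares on chromosomes 7, 10 and 12 were 0.0212%, 0.0165% and 0.595%. Chromosome 10 differed in what it shared with unplaced sequences of the assembly: a further 24.03% of its stretches of 50 bases, and 5.96% of those of 100 bases, were found on these alone, against 0.0766% at 50 bases on chromosome 7 and 0.000212% on chromosome 12. Within their own chromosome the stretches were far from unique, with medians of 1995, 409.5 and 1052.5 copies at 50 bases, so that coverage is better read over an array than at a position.

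Set beside the other arrays of the family, chromosomes 7 and 12 kept their length and chromosome 10 did not. The log2 ratio of covered length was -0.02 on both chromosomes 7 and 12 and -1.63 on chromosome 10, against -0.78, -0.61 and -0.65 on chromosomes 1, 5 and 19 and -1.39 on chromosome 16. When only bases with at least 50 reads counted, the ratios of length for chromosomes 7, 10 and 12 were -0.48, -1.65 and -0.23, so that the kept length of chromosomes 7 and 12 holds for any coverage and not for a fixed level. The median log2 ratio of windows covered in both groups was -0.57 on each of chromosomes 1, 5 and 19 and -0.32 on chromosome 16, which placed chromosome 12 nearest to 16, and chromosomes 7 and 10 below all 4. The mean over shared bases, which gives high sites more weight, placed chromosome 16 at -0.70 and chromosomes 1, 5 and 19 at -0.38, -0.62 and -0.40, so that chromosome 16 then stood apart from chromosome 12. By either measure chromosome 7 kept its length at a level ratio close to that of chromosome 10.

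**Figure D5:**
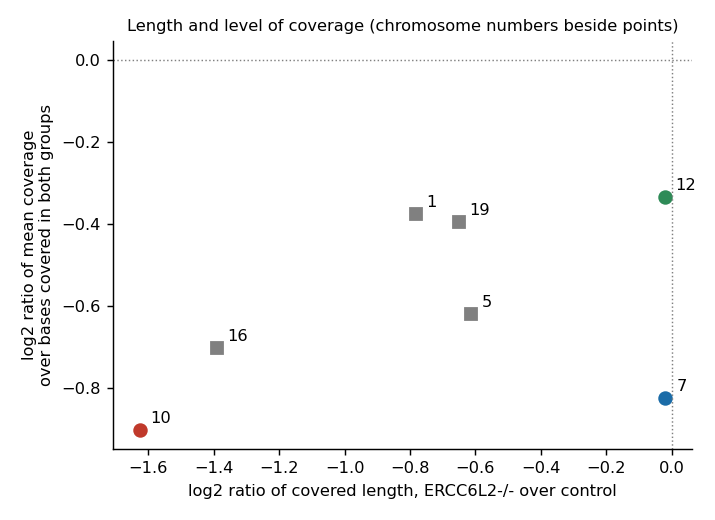
Log2 ratio of the mean level at bases shared by the groups against the log2 ratio of covered length, ERCC6L2-/- over control, 1 point for each chromosome (circles for 7, 10 and 12, squares for 1, 5, 16 and 19). Chromosomes 7 and 12 lie at -0.02 in length and 0.49 apart in level, and chromosome 10 lies at -1.63 in length. Scaling to total coverage would move all points up by 1.12, past 0.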

How the data were processed

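CENP-B ChIP-seq of U2OS cells comprised 3 immunoprecipitates and 1 input in each of the control and ERCC6L2-/- groups. The submitters' processing notes name FastQC, Trim Galore, Bowtie2 and MACS2 and the build GRCh38 (hg38), and the study's methods add a filter on FDR and merging of the peaks of the 3 replicates with MSPC. The authors deposited the coverage signal inside merged peaks, as whole numbers of reads per base, with 1 pooled value for each group. How duplicates and reads with several matches were handled, software versions and any depth scaling are not given in the sources used here. Because values exist only inside merged peaks, a base without coverage may be one that was not called, and peaks were called separately in each group. Input libraries were not used here.

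Closed intervals, counted from 1, were turned into base-level vectors (numpy 2.4.6 and pandas 2.3.3 under Python 3.11.15). Values were averaged in 1 kb windows, and log2 ratios of windows used a pseudocount of 1. Regions are covered bases joined over gaps of up to 1 kb. Boxes, repeat offsets and shared stretches of 50, 100 and 150 bases were read from GRCh38 with pysam 0.24.0 and numba 0.67.0, and gene positions from GENCODE release 44. Named regions were the first and last covered base, the longest region and gap, regions outside the main array and the highest window, plus the 3 commonest boxes and the commonest unit. The regions, comparisons and alternatives were chosen with earlier results of these data known, and the classes of control level, the windows of chromosome 12 above control and the share in the 10 highest windows were added after the values were seen.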

Additional observations from a re-analysis of the deposited data

How the results depend on the processing

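Values are given for chromosomes 7, 10 and 12 in that order. With ERCC6L2-/- scaled to total coverage, the log2 ratios of summed coverage were 0.29, -0.45 and 0.72, those of the mean over shared bases (covered in control and in ERCC6L2-/-) were 0.29, 0.21 and 0.78, and lowered windows were 0.709%, 64.6% and 1.46%. With scaling to bases covered in both groups outside centromeric bins, the sums gave -0.26, -1.001 and 0.17 and the shared means -0.26, -0.33 and 0.24. This factor rests on 9933 bases only. Only bases with at least 10 reads gave sums of -0.84, -1.57 and -0.40 and lengths of -0.11, -1.60 and -0.058. Only bases with at least 50 reads gave sums of -0.98 and -0.45 on chromosomes 7 and 12, lengths of -0.48, -1.65 and -0.23 and shared means of -0.80, -0.89 and -0.31. Capping at the 99th percentile gave sums of -0.78, -1.70 and -0.27 and shared means of -0.77, -0.69 and -0.23, so that chromosome 7 then lay below chromosome 10 in shared mean. A pseudocount of 10 gave 5.26% and 54.5% of lowered windows on chromosomes 7 and 10, and windows of 10 kb gave 2.59%, 67.0% and 2.88%. Shares of lowered windows over all sequences are not given for these settings. Without joining gaps, regions numbered 336, 994 and 211 in control and 932, 284 and 348 in ERCC6L2-/-, and joining over gaps of up to 10 kb left 27 on chromosome 10 and 3 on chromosome 12 in control. The other 15 values stayed within 1.5 times for numbers of regions, and within the 95% Wilson interval, which takes read bases or windows as independent, for ratios and percentages. The cause of each shift beyond the scaling, filter or cap itself was not tested. The order of chromosomes 7 and 12 in shared mean, and the loss of length on chromosome 10, held under all of these settings that bear on them.

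No paired analysis was possible because each group has 1 pooled value per base, and for the same reason no replicate was left out in turn. The depth of the libraries is unknown. Bases outside the merged peaks have no value, so whether they had low coverage or none cannot be told.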

Other observations

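High sites beside the arrays differed in their ratios. Among chromosomes 1, 5, 7, 10, 12, 16 and 19, 9 control regions had a mean above 1000 reads per base and some coverage in ERCC6L2-/- cells. Of these, 8 lay outside the main arrays. The mean was taken over a whole joined region, so a high site within a long unbroken array could not pass, and this count does not locate high sites. For example, chr16:38265770-38269050 lies within the long control region of chromosome 16. It had 3421 reads per base in control and 1342 in ERCC6L2-/-, a log2 ratio of -1.35. The 2 sites on chromosome 12, at chr12:37235308-37240837 and chr12:37245724-37255289, had log2 ratios of -1.22 and -1.45, and 46.0% of the covered bases of the latter were covered in both groups. On chromosome 16, the site at chr16:38275874-38280546 had -1.24. The 4 on chromosome 5 had between -1.19 and -1.01. The region inside an array, chr10:40553902-40558958, had -0.82, and a site on chromosome 1, chr1:125178803-125183119, had 0.09. The log2 ratio of coverage summed over all sequences was -1.12. These regions were chosen after their values were seen, and the reason for the difference between them was not tested.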
